A study of Rattus norvegicus with 6 samples.

Results

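The genes described here are the translation initiation factors (eIF), the translation elongation factors (eEF) and the enzymes and binding proteins named after them, measured in rat embryonic stem (ES) cells and in rat flat pluripotent stem (fPS) cells. They are the genes whose symbol begins with Eif and a number from 1 to 6, or with Eef and 1 or 2. The rule, set with earlier results of these data known, also asked for a probe set annotated to that gene only. This gave 93 probe sets for 60 genes, of 14217 genes in all, and where a gene had several, the one with the highest 6-array mean stood for it. A further 5 probe sets carried several symbols each, among them those for Eif5 and Eif3e, and are not counted as members.

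Total RNA of both cell types, from Sprague-Dawley rats, was hybridised to Affymetrix arrays, with 3 arrays of ES cells and 3 of fPS cells. The labels give the same culture for both groups: a serum-free medium with human LIF, the GSK3 inhibitor CHIR99021 and the MEK inhibitor PD0325901, and maintenance on mouse embryonic fibroblasts treated with mitomycin C in a medium with serum. No genetic change or further treatment is given for either group, and separate cultures are not named, so every p-value rests on the spread between these arrays, which may be technical. Cells were taken from culture by hand, and the fPS samples are called embryonic stem cells in their free-text description. In such bulk samples fewer cells of a type and less RNA per cell cannot be told apart.

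Initiation factors bring the initiator tRNA, the small ribosomal subunit and the capped mRNA together, and elongation factors then carry aminoacyl-tRNAs to the ribosome and move it along the message. The best known points of control are the phosphorylation of eIF2 by stress kinases, which blocks recycling of eIF2 by eIF2B, the capture of the cap-binding protein eIF4E by the 4E-binding proteins when mTORC1 is inactive, and the phosphorylation of eEF2 by its kinase. Pluripotent cells are known for a low rate of protein synthesis for their size. Many mRNAs of elongation factors and ribosomal proteins begin with a terminal oligopyrimidine (TOP) tract, a C followed by a run of C and T in the DNA, through which LARP1 and mTORC1 set their translation.

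RefSeq windows from 250 bases before to 50 after the annotated start (build GRCr8) were at hand for 55 of the 60 genes. The starts of 5 members show what a TOP-like tract looks like and how the annotated start can miss it. Each line gives the 10 bases before and the 15 bases after the start, and capitals mark an unbroken run of at least 5 C or T that begins within 5 bases of the start on the transcribed strand.
Eef1a1, chr8:88225055-88225079, minus strand: ttggacgTTCTTTTTCgcaacgggt
Eef1b2, chr9:72074081-72074105, plus strand: ggccggtcccggCCCTTTTTCTCCC
Eif3f, chr1:172369052-172369076, plus strand: cccttccgttctagCCTCTCTCTTT
Eif2s3, chrX:62933685-62933709, minus strand: cagccgagcaTTTTCCTTTTCTCTC
Eef2, chr7:9189224-9189248, minus strand: ccgcagccgccgccatcgtcggcgc
Such a run stood at the start of 14 of the 55 genes (25.5%), and in 19.1% of all 33469 windows. The median log2 change, fPS minus ES, was -0.21 for the 14 members with a run and -0.15 for the 41 without. This difference was not tested, and these medians were not taken under other settings. Eef2 is a known TOP gene without a run at its annotated start, so no match here says only that these letters are not in this window.

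None of the 60 genes passed the test between fPS and ES cells. With limma, an adjusted p under 0.05 over all 31042 probe sets was reached by 0 of the 60 genes, where 0.862% of the 14157 other genes reached it, and at an unadjusted p under 0.05 there were 8 members (13.3%), 1 higher and 7 lower, against 17.5% of the other genes (8.62% higher, 8.87% lower). The members' share was below that of other genes for higher values (1.67%) and above it for lower values (11.7%). Among the 9044 other genes in the brighter 50% of probe sets it was 21.6% (9.38% higher, 12.3% lower), and 1.13% passed (0.73% higher, 0.398% lower). Of all other genes 0.572% passed as higher and 0.29% as lower. The log2 changes of the members ran from -0.85 (Eif1ad) to 0.83 (Eif2ak2), so 0 of 60 differed by more than 2-fold, against 4.94% of the other genes. For 47 of the 60 genes (78.3%) the 95% interval of the change lay within 2-fold in either direction, against 62.3% of the other genes. With 3 arrays a group, a p that misses the threshold does not show that a gene is at the same level in both cell types.

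**Figure D1:**
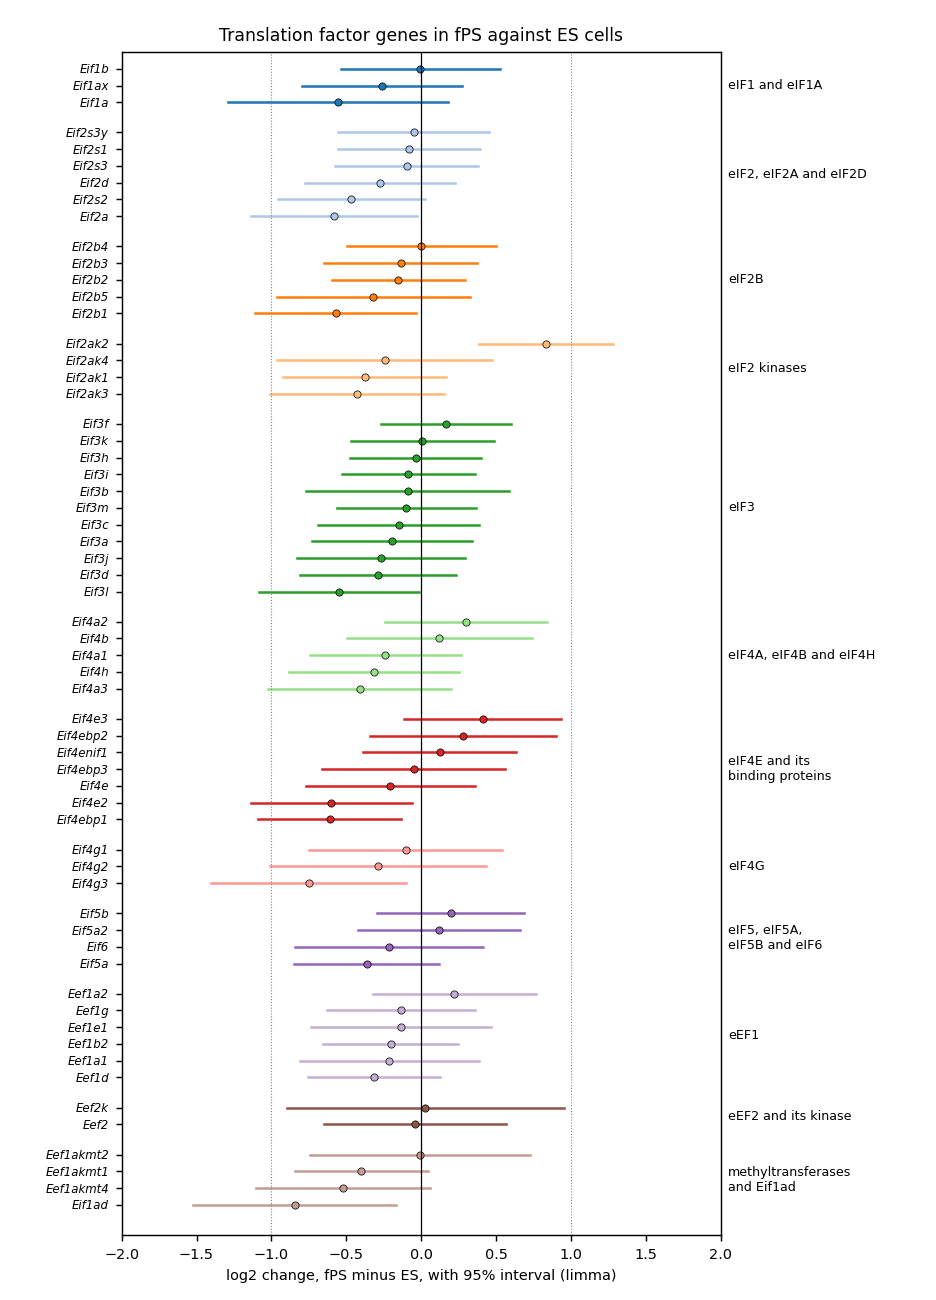
Log2 change from ES to fPS cells (x axis, points) of the 60 genes, by role, with 95% intervals from limma (bars, 3 arrays a group); dotted lines mark 2-fold. Most points lie left of 0, between -0.85 and 0.83, and 47 of 60 intervals lie within the dotted lines.

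The members leaned to lower values in fPS cells, and this lean shrank without the third array of either group. On the values as deposited, 47 of 60 genes had a negative sign and the median log2 change was -0.17, where the other genes had a median of 0.0016 and 49.9% negative signs. Among the brighter other genes the median was -0.069, with 56.5% negative. The groups did not overlap in 17 members (28.3%), 3 higher and 14 lower, against 22.5% of all other genes (11.3% higher, 11.3% lower) and 27.7% of the brighter ones (12.1% higher, 15.6% lower). After quantile normalization the members' median was -0.049 and 34 of 60 signs were negative, beside 0.015 and 48.4% for all other genes. With each array centred on its median, it was -0.23 and 50 of 60 were negative, beside -0.059 and 56.4%. The balance of signs thus moved with the scaling of the arrays, in either direction.

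Array by array, 36 of the 60 genes had their highest value on ES replicate 3 (60%, against 28.0% of all and 38.5% of the brighter other genes). The lowest value of 35 was on fPS replicate 3 (58.3%, against 29.4% and 36.9%). The median deviation of the members from their own 6-array mean was, on the log2 scale, 0.034, -0.054 and 0.31 for ES and 0.052, -0.026 and -0.25 for fPS. The brighter other genes had the same extremes with smaller values, 0.19 on ES replicate 3 and -0.17 on fPS replicate 3. All other genes had their lowest median on fPS replicate 3 (-0.11), but their highest on fPS replicate 1 (0.10), with 0.051 on ES replicate 3. Without ES replicate 3 the members' median change was -0.057, without fPS replicate 3 it was -0.060, and without both it was 0.016 with 27 of 60 negative signs. Of the 60 members, 32 changed sign under at least 1 of the 17 other settings, 22 of them without replicate 3 of both groups. Without ES replicate 2 and without fPS replicate 1, which also move it by more than 1.5 times, the median was -0.29 and -0.27.

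**Figure D2:**
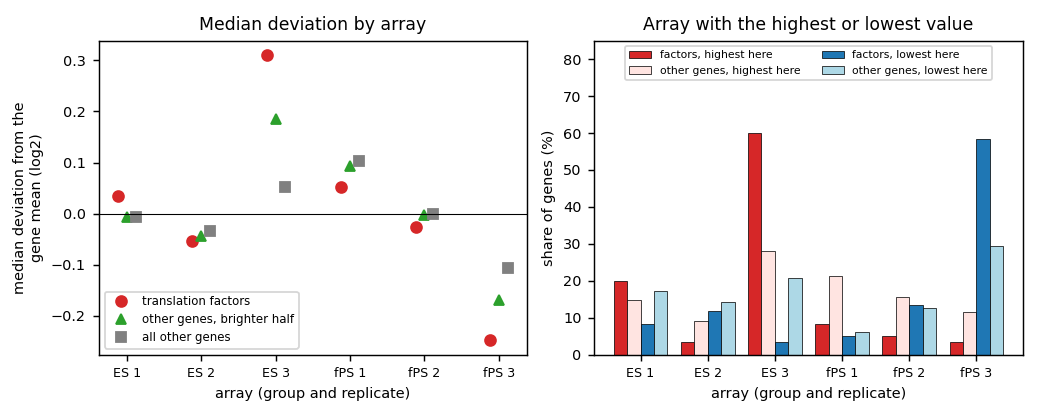
Left, the median deviation of genes from their 6-array mean (log2, y axis) on each array, for the translation factors, the other genes in the brighter 50% of probe sets and all other genes. Right, the share of genes (%, y axis) whose highest or lowest value falls on each array: 60% of the factors peak on ES replicate 3 and 58.3% are lowest on fPS replicate 3.

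These same arrays stood out in cell type markers. The mean log2 value of 18 fibroblast markers, the feeder cell type, was highest on ES replicate 3 (6.73) and fPS replicate 3 (6.69). It lay between 5.55 and 6.26 on the other 4 arrays. The feeders are mouse cells, and how probe sets annotated to rat genes read mouse RNA was not tested. Several of these markers were close to the lowest intensities, such as Thy1 (1.91 to 27.1), while Col1a2 ran from 4.03 on ES replicate 1 to 712 on ES replicate 3. Not all followed that order: Timp1 was lowest on the third array of each group, with 2106, 1722 and 590 in ES and 2080, 2358 and 1404 in fPS cells, and Col6a2 was lowest on ES replicate 3 (1.63). The mean of 8 pluripotency markers that could be measured, of 16 listed, was highest on ES replicate 3 (11.0) and lowest on fPS replicate 3 (10.2), and none of the 8 was near 0: the lowest single value was 351 for Lin28a. Between the groups the pluripotency markers had a median log2 change of -0.21, 6 of 8 negative. Lin28a (-1.30) and Sox2 (-0.97) were lower without overlap, and Klf5 (0.32) was higher without overlap. The fibroblast markers had a median of 0.28, 13 of 18 positive, and 0 of either list passed. Both medians moved with the arrays used. The fibroblast median was 0.036 after dropping ES replicate 1, 0.094 after dropping fPS replicate 3 and 0.45 after dropping ES replicate 3. The pluripotency median was -0.069 after dropping fPS replicate 3 and -0.39 after dropping fPS replicate 1. It was 0.049, with 4 of 8 negative, after dropping the third array of both groups. Pou5f1 and Nanog were not analysed here. The ratio of 3' to 5' β-actin probes was highest on fPS replicate 2 (4.37) and between 2.06 and 2.69 on the others. The part of these differences in the results was not tested.

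**Figure D3:**
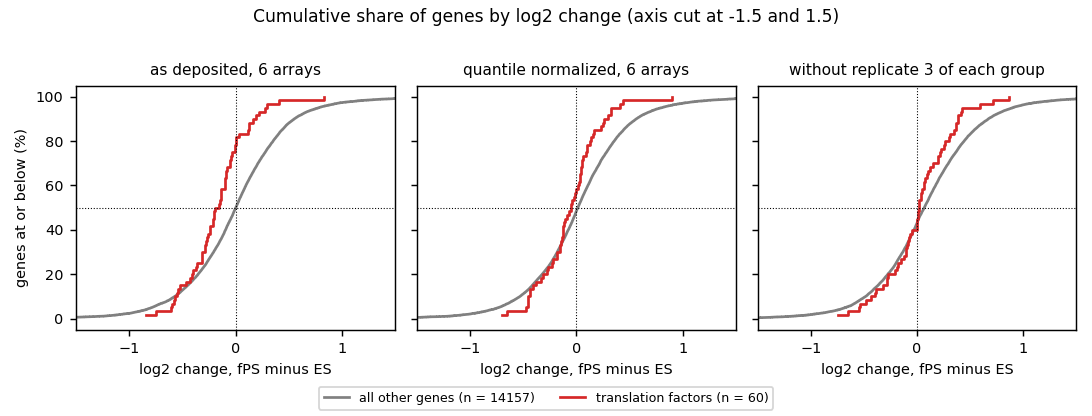
Cumulative share of genes (%, y axis) by log2 change from ES to fPS cells (x axis) for the 60 translation factors and the 14157 other genes, as deposited, after quantile normalization and without replicate 3 of both groups. The factors' median moves from -0.17 to -0.049 and to 0.016, beside 0.0016, 0.015 and 0.068 for the other genes.

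Among the eIF2 kinases, Eif2ak2 had the largest positive change of the family. Eif2ak2 encodes PKR, the kinase that is activated by double-stranded RNA and induced by interferon. It read 109, 86.6 and 107 in ES cells, against 195, 186 and 194 in fPS cells, in units of intensity. Every fPS array lay above every ES array, and the values within a group lay close together. The log2 change was 0.83 (95% interval 0.39 to 1.28, adjusted p = 0.0919 by limma), which did not pass. Its unadjusted p was under 0.05 under each of the 17 other settings tried, with an adjusted p from 0.0505 to 0.315, and its log2 change ran from 0.64 to 0.93.

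The other 3 eIF2 kinases had changes of the opposite sign. The log2 change was -0.38 for Eif2ak1 (HRI, the haem-regulated kinase), -0.43 for Eif2ak3 (PERK, the kinase of the endoplasmic reticulum stress response) and -0.24 for Eif2ak4 (GCN2, the sensor of uncharged tRNA). All 3 had groups that overlapped, and their adjusted p-values by limma lay between 0.483 and 0.786. Eif2ak4 was highest on ES replicate 3 (323) and lowest on fPS replicate 3 (125), and its sign turned without either array (0.0042 and 0.019).

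The bases before the start of Eif2ak2 are shown because this member had the smallest p and its known inducer acts through a short motif there. The core of the interferon-stimulated response element, written as GAAA, a pair of any bases and again GAAA, was searched on both strands of each window. The line gives the 250 bases before the annotated start, 5′ to 3′, with the match in capitals.
Eif2ak2, GRCr8 chr6:21940904-21941153, plus strand: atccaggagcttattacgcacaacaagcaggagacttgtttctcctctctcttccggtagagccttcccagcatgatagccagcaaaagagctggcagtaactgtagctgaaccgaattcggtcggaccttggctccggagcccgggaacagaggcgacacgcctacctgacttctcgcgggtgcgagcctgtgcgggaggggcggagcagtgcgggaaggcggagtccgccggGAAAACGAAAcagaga
The match begins 16 bases before the start. The same letters were in 3.92% of all windows, which run from 250 bases before to 50 after the start. Among the 58 windows of members they were in 5, those of Eif2ak2, Eif2a, Eif2s3, Eif3k and Eif6. Of these, Eif2s3, Eif3k and Eif6 had log2 changes of -0.097, 0.0068 and -0.22, and Eif2a of -0.58. The signs of Eif2s3, Eif3k and Eif6 did not hold under all settings. A link between the letters and the changes was not tested. A match of letters is a description and not a site of binding.

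eIF2 delivers the initiator tRNA, and eIF2B is its exchange factor. All 6 genes of the eIF2 group (the 3 subunits, Eif2s3y, Eif2a and Eif2d) had a negative sign and 0 passed. After quantile normalization 4 of 6 were negative, as they were without ES replicate 3 and without the third array of both groups. Of the 3 eIF2 subunits, Eif2s2 (β) had intensities of 5527, 5718 and 7374 in ES and 5034, 4319 and 4043 in fPS cells. The fPS arrays lay below the ES arrays, and the log2 change was -0.47 (SE 0.216, adjusted p = 0.350 by limma). Eif2s1, the α subunit that the kinases phosphorylate, and Eif2s3, the γ subunit, had changes of -0.083 and -0.097 with groups that overlapped. Eif2s3y, the copy of the γ subunit gene on the Y chromosome, had intensities from 0.101 to 5.54 on all 6 arrays, at the bottom of the scale in both groups. Eif2a, an alternative initiation factor unrelated to eIF2 in sequence, went from 828 ± 132 (SD, n = 3) to 553 ± 125, a log2 change of -0.58 (adjusted p = 0.296 by limma). Of the 5 eIF2B subunits, Eif2b1 (α) was the only one with groups that did not overlap, with 882, 560 and 758 against 559, 445 and 445, and a change of -0.57 (adjusted p = 0.295 by limma). The closest arrays of the groups, ES replicate 2 and fPS replicate 1, differed by less than a unit of intensity. Eif2b3 (γ) had a change of -0.14 and Eif2b4 (δ) of 0.0018. The median of the eIF2B group was 0.035 without the third array of both groups.

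eIF3 is the large scaffold of initiation, and 11 of its subunits could be measured singly. Their median log2 change was -0.098, 9 of 11 were negative and 0 passed. After quantile normalization the median was 0.043. The subunit with the largest change was Eif3l, with intensities of 2705, 2430 and 3834 in ES and 2119, 1811 and 2093 in fPS cells. All fPS arrays lay below all ES arrays, and ES replicate 3 stood highest. The log2 change was -0.55 (SE 0.235, adjusted p = 0.311 by limma), and the other probe set of the gene gave -0.82. Eif3d was also lower without overlap (-0.29), whereas Eif3f was higher without overlap, at 2657 ± 151 and 2979 ± 159 (SD, n = 3), a log2 change of 0.16. Eif3h was at 5256 ± 281 and 5123 ± 322. The 95% interval of this probe set, -0.47 to 0.40, lay within 2-fold. The other, dimmer probe set of the gene gave -0.51 (SE 0.265).

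The cap-binding complex eIF4F holds the cap-binding protein eIF4E, the helicase eIF4A and the scaffold eIF4G. The helicase paralogs differed in sign and none passed: Eif4a1 had a log2 change of -0.24, Eif4a2 of 0.30 and Eif4a3, which serves in the exon junction complex, of -0.41. Eif4a2 had 3776, 4112 and 5632 in ES and 5741, 6180 and 4580 in fPS cells, so that fPS replicate 3 fell inside the ES range. Their adjusted p-values by limma were 0.676, 0.618 and 0.527, and the difference between the paralogs was not tested. The helicase cofactors Eif4b and Eif4h had changes of 0.12 and -0.31.

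On its brightest probe set Eif4e, the main cap-binding protein, was level on all arrays except ES replicate 3. It had 3214, 3193 and 5223 in ES and 3554, 3180 and 3082 in fPS cells. Its log2 change was -0.21, and 0.028 without ES replicate 3. The dimmer probe sets of Eif4e gave -0.51 and 0.18. Eif4e2 (4EHP), a cap-binding protein that represses translation, had 1580, 1243 and 1201 against 1106, 832 and 722. The groups did not overlap, and the change of -0.60 (SE 0.237, adjusted p = 0.271 by limma) did not pass. Eif4e3 was dim, at 22.2 ± 7.62 and 34.3 ± 5.69 (SD, n = 3), and its probe sets disagreed in sign (0.41 and -0.093).

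Among the 4E-binding proteins, which hold eIF4E away from eIF4G, Eif4ebp1 had the most negative change. Its intensities were 2314, 2362 and 2161 in ES and 1777, 1428 and 1289 in fPS cells. The groups were well apart, and ES replicate 3 was here the lowest ES array. The log2 change was -0.61 (95% interval -1.09 to -0.14, adjusted p = 0.208 by limma), with an adjusted p from 0.105 to 0.494 under the other settings. Eif4ebp2, the form prominent in brain, had a change of 0.28 and Eif4ebp3 of -0.050, both with overlapping groups. Eif4enif1 (4E-T), which carries eIF4E to the nucleus and to P-bodies, was at 265 ± 64.3 and 285 ± 2.65 (SD, n = 3).

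All 3 eIF4G genes had negative signs. Eif4g3 had 296, 266 and 546 in ES and 228, 194 and 187 in fPS cells. The fPS arrays lay below the ES arrays, of which replicate 3 stood high. The log2 change was -0.75 (SE 0.286, adjusted p = 0.255 by limma) and -0.36 at its smallest under the other settings. Eif4g1 and Eif4g2 (DAP5, a scaffold that does not bind eIF4E) had changes of -0.10 and -0.29, whose signs turned without fPS replicate 3 (0.14 and 0.040). Of the start-site factors, Eif1a had a change of -0.56, Eif1ax of -0.26 and Eif1b of -0.0055, and the 4 probe sets of Eif1a agreed in sign (-0.56 to -0.36). The median of these 3 genes was -0.26, and -0.15 without ES replicate 3, -0.12 without fPS replicate 3 and -0.051 without both. It was -0.40 without ES replicate 2. Eif1ad, an eIF1A-like protein, had the most negative change of the family: 1587, 1330 and 1218 in ES and 1131, 744 and 510 in fPS cells, without overlap, a log2 change of -0.85 (SE 0.298, adjusted p = 0.220 by limma).

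**Figure D4:**
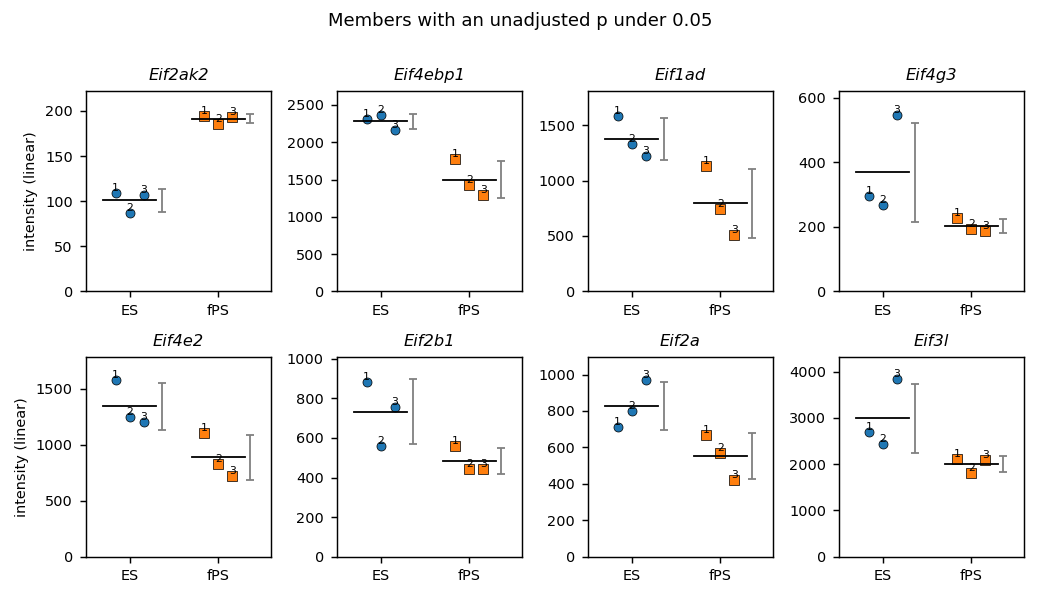
Intensity (linear, y axis from 0) on each of the 6 arrays for the 8 members with an unadjusted limma p under 0.05; digits give the replicate, black lines the group means and grey bars 1 SD (n = 3). Eif2ak2 is higher on all fPS arrays, and the other 7 are lower on all fPS arrays.

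Of 4 factors that act at subunit joining and after it, 0 passed. Eif5a, which carries the amino acid hypusine and helps the ribosome through difficult peptide bonds, was at 5182 ± 260 and 4064 ± 732 (SD, n = 3) without overlap, which gives -0.36 on the log2 scale (adjusted p = 0.475 by limma). Its paralog Eif5a2 had a change of 0.12, the joining factor Eif5b of 0.20 and Eif6, which keeps ribosomal subunits apart, of -0.22. In all 3 the groups overlapped on the brightest probe set. The other, dimmer probe set of Eif5a2 gave -0.22, without overlap. It had 399, 384 and 396 in ES and 350, 366 and 292 in fPS cells.

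Among the genes grouped by symbol as elongation factors, 0 passed. All 6 genes of the eEF1 group, Eef1e1 among them, and both of the eEF2 group had 95% intervals within 2-fold. Eef1a1, which brings aminoacyl-tRNA to the ribosome, had 8053, 8280 and 13524 in ES and 7183, 8314 and 9708 in fPS cells, and ES replicate 3 alone lay apart. Its log2 change was -0.21, and 0.030 without ES replicate 3. Eef1a2, the form of muscle and neurons, was dim at 27.9 ± 10.5 and 34.2 ± 3.45 (SD, n = 3). The exchange factor subunits Eef1b2, Eef1d and Eef1g had changes of -0.20, -0.32 and -0.14. Of these only Eef1d had groups that did not overlap, with 5366, 5123 and 4953 against 4489, 4127 and 3784 (adjusted p = 0.493 by limma). Eef2, the translocase, was at 4144 ± 1514 and 3871 ± 155 (SD, n = 3), a change of -0.040 with an interval from -0.65 to 0.57. Its kinase Eef2k had a change of 0.028, which ran from -0.28 to 0.52 when single arrays were left out. Of the methyltransferases that modify eEF1A, Eef1akmt1 and Eef1akmt4 were lower without overlap (-0.40 and -0.52) and Eef1akmt2 was at -0.0051, with 0 of 3 past the threshold.

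For 24 of the 60 genes several probe sets were at hand, and they agreed in sign for 15 genes and disagreed for 9. The cases named here were chosen after their values were seen. The brightest probe set of Eif4g1 gave -0.10, while a dimmer one had 110, 124 and 134 in ES and 215, 246 and 250 in fPS cells. That probe set separated the groups fully, with a log2 change of 0.87 and the smallest adjusted p of all 93 probe sets (0.0868 by limma), and the other 2 gave 0.21 and -0.29. For Eif4g2 the 3 probe sets agreed in sign but ran from -0.29 for the brightest to -1.18, the latter with 1092, 749 and 1318 against 585, 519 and 286 (adjusted p = 0.131 by limma). For Eif5b the brightest gave 0.20 and the dimmest -1.001. The dimmer probe set of Eef2 ran from 7.99 on ES replicate 1 to 990 on ES replicate 3 and 1055 on fPS replicate 3, so its log2 change of 1.27 had an SE of 1.22.

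**Figure D5:**
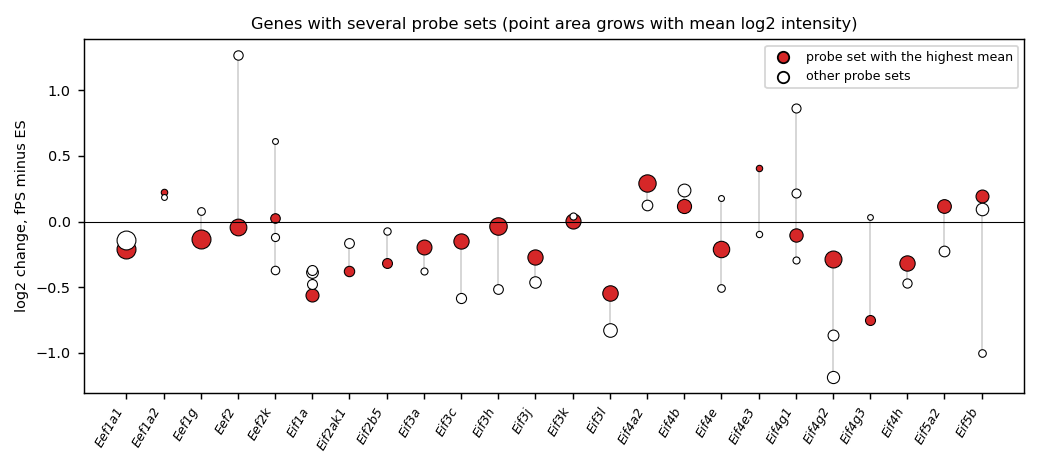
Log2 change from ES to fPS cells (y axis) of every probe set of the 24 genes with several (x axis); filled points are the probe sets with the highest mean, and the point area grows with mean log2 intensity. The widest spreads are in Eef2, Eif5b, Eif4g1 and Eef2k (-0.37 to 0.62).

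The other genes of protein synthesis, in 6 lists, also had 0 genes past the threshold in each. The cytosolic aminoacyl-tRNA synthetases, which charge tRNAs with amino acids, had the most negative median. Of 19 measured, 17 had a negative sign, 16 were lower and 1 higher without overlap between the groups, and 12 were lower and 1 higher at an unadjusted limma p under 0.05. Their median log2 change was -0.73, and -0.47 without ES replicate 3, -0.53 without the third array of both groups and -0.59 after quantile normalization. The same list held 2 scaffold proteins of the multisynthetase complex, which charge no tRNA, Aimp1 (-0.11) and Aimp2 (-0.48), both with overlapping groups. The shares of all other genes that were lower were 11.3% without overlap and 8.87% at that p. Sars1, the seryl enzyme, had 1372, 1317 and 1947 in ES and 621, 606 and 718 in fPS cells. Cars1, the cysteinyl enzyme, had 802, 814 and 1057 against 400, 407 and 372. For both, every fPS array lay far below every ES array. The log2 changes were -1.21 and -1.14 (adjusted p = 0.0550 and 0.0514 by limma), and both passed under some settings, such as centred arrays (adjusted p = 0.0419 and 0.0352). Over all settings tried, the adjusted p ran from 0.0158 to 0.244 for Sars1 and from 0.0165 to 0.223 for Cars1. The 1 synthetase that was higher at an unadjusted p under 0.05 was Vars1, named after its value was seen, with a log2 change of 0.52.

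Of 31 genes of mTORC1 and translational control, 16 had a positive and 15 a negative sign, with a median of 0.018 that turned with single arrays (-0.12 without ES replicate 1, 0.15 without ES replicate 3). Of the 31 genes, 9 (29.0%) had an unadjusted limma p under 0.05, 4 higher and 5 lower. That share was 17.5% for all other genes and 21.6% for the brighter other genes. More than 2-fold apart were 5 (16.1%), against 4.94% and 6.59%. Rps6kb1, the S6 kinase that mTORC1 activates, had 301, 309 and 296 in ES and 153, 138 and 55.0 in fPS cells. Its log2 change was -1.37 (adjusted p = 0.0933 by limma, from 0.0263 to 0.261 under the other settings). The ES arrays agreed closely and all fPS arrays lay below them. Cpeb1, which binds the cytoplasmic polyadenylation element, was at 4.41, 3.96 and 1.39 in ES and 20.5, 66.2 and 43.7 in fPS cells, near the bottom of the scale in ES cells (log2 change 1.55, adjusted p = 0.0571 by limma, from 0.0171 to 0.235).

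The remaining lists had medians near that of the translation factors, and these too moved with single arrays. The median log2 change was -0.26 for 10 genes of termination and recycling (Etf1, the release factor eRF1, -0.55; Nemf -0.52) and -0.23 for 8 enzymes that make hypusine and diphthamide (Dph3 -0.54, Dhps -0.52). Without ES replicate 3 these medians were -0.13 and -0.18, without fPS replicate 3 -0.14 and -0.024, and without both 0.033 and 0.047. Without ES replicate 2 they were -0.40 and -0.37 and without fPS replicate 1 -0.46 and -0.41, and the hypusine median was -0.092 without ES replicate 1. For 8 mitochondrial translation factors the median was -0.21, with -0.098 without fPS replicate 3 and -0.34 without fPS replicate 1, and Mtif2 had 0.77 and Tufm -0.69. For 10 measured genes known to carry a TOP tract it was -0.17, with 8 of 10 negative, among them Nap1l1 (-0.55) and Hnrnpa1 (-0.39). That median was -0.0090 with 5 of 10 negative without ES replicate 3, -0.099 without fPS replicate 1 and -0.034 with 5 of 10 negative without replicate 3 of both groups. That list shares 8 of its 10 genes with the family.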

How the data were processed

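The deposited table holds 1 linear intensity per probe set and array for 6 arrays of biotin-labelled cRNA, as the range of its values shows. How the authors summarised probes, corrected the background and scaled the arrays is not given in the sources used here. Array medians ran from 36.2 to 45.3. The table had 31099 probe sets, and 57 controls were left out. Gene symbols were read from GEO's platform annotation (20826 probe sets with 1 symbol, 436 with several, 9780 with none), and identifiers of 20758 were found in a RefSeq table of GRCr8, which changed 0 symbols. Levels were not compared between probe sets.

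Values were analysed as log2(intensity + 16), so fold changes of dim probe sets are understated, with limma 3.58.1 (lmFit and eBayes) in R 4.3.3, no filter and Benjamini-Hochberg adjustment over 31042 probe sets at 0.05. Figures used matplotlib 3.10.9 in Python 3.11.15. Members and lists were chosen with earlier results of these data known. Genes were named if they had the 6 smallest p-values in a direction, were the brightest or most changed of their role group, or belonged to a fixed paralog set; from each other list the 2 most changed were named. Further genes were added after their values were seen. The fit was first tested on simulated data with known changes. At the same threshold it recovered 5.6% of 2-fold and 84% of 4-fold changes. A change of 2-fold or less would thus mostly be missed.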

Additional observations from a re-analysis of the deposited data

How the results depend on the processing

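No translation factor gene passed under any of the 17 other settings, nor with core factors only. The members' median log2 change stayed within 0.18 (the SD between replicates) of its value except without the third array of both groups (0.016). Leaving out single arrays gave medians from -0.29 to -0.057 and from 0 to 93 passing genes among all genes, where the full set gave 122. That count was 203 with centred arrays, 0 and 26 with pseudocounts of 1 and 64, 416 and 506 without the dimmest 30% and 50% of probe sets, 358 with trend and robust settings, and 0 without the third array of both groups. With the replicate number as a block it was 64. Whether the numbers pair the samples cannot be told from these values. The correlations of deviations of same-numbered arrays were 0.15, 0.020 and 0.075. Each fPS array correlated best with the ES array of its own number, but ES replicate 2 correlated best with fPS replicate 3 (0.054). With the block, as without it, 0 members passed. The cause of these shifts was not tested.

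The sign was checked for the 60 members and for 13 genes of the other lists. Of the members, 32 changed sign under at least 1 setting. After quantile normalization the log2 change was 0.067 for Eef1akmt2, 0.012 for Eef1e1, 0.11 for Eef2, 0.097 for Eif1b, 0.00028 for Eif2b3, 0.052 for Eif2s1, 0.039 for Eif2s3, 0.043 for Eif3b, 0.094 for Eif3h, 0.044 for Eif3i, 0.051 for Eif3m, 0.038 for Eif4ebp3 and 0.023 for Eif4g1. With centred arrays it was -0.032 for Eef2k, -0.058 for Eif2b4 and -0.054 for Eif3k. With a pseudocount of 64 it was 0.010 for Eef1akmt2. With the mean over all probe sets it was 0.61 for Eef2, 0.17 for Eif4g1, -0.054 for Eif5a2 and -0.24 for Eif5b. Without the third array of both groups it was 0.38 for Eef1akmt2, 0.017 for Eef1e1, 0.011 for Eef1g, 0.23 for Eef2, 0.27 for Eif2ak4, 0.035 for Eif2b3, 0.049 for Eif2b5, 0.10 for Eif2s1, 0.076 for Eif2s3, 0.096 for Eif3a, 0.39 for Eif3b, 0.12 for Eif3c, 0.015 for Eif3h, 0.022 for Eif3i, 0.041 for Eif3j, -0.10 for Eif3k, 0.061 for Eif3m, 0.069 for Eif4e, 0.26 for Eif4ebp3, 0.31 for Eif4g1, 0.20 for Eif4g2 and 0.0049 for Eif4h. Leaving out single arrays gave -0.34 to 0.030 for Eef1a1, -0.27 to 0.34 for Eef1akmt2, -0.31 to 0.040 for Eef1e1, -0.22 to 0.020 for Eef1g, -0.19 to 0.24 for Eef2, -0.28 to 0.52 for Eef2k, -0.13 to 0.19 for Eif1b, -0.46 to 0.019 for Eif2ak4, -0.26 to 0.0014 for Eif2b3, -0.11 to 0.13 for Eif2b4, -0.16 to 0.015 for Eif2s1, -0.20 to 0.017 for Eif2s3, -0.18 to 0.057 for Eif2s3y, -0.24 to 0.17 for Eif3b, -0.30 to 0.027 for Eif3c, -0.075 to 0.016 for Eif3h, -0.13 to 0.099 for Eif3k, -0.096 to 0.39 for Eif4b, -0.33 to 0.028 for Eif4e, -0.28 to 0.10 for Eif4ebp3, -0.018 to 0.30 for Eif4enif1, -0.30 to 0.14 for Eif4g1, -0.46 to 0.040 for Eif4g2, -0.038 to 0.29 for Eif5a2 and -0.44 to 0.044 for Eif6.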

Other observations

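Probe sets annotated to several genes were left out of the family but carried signal for 2 factors that it otherwise lacks. Eif5, the factor that triggers GTP hydrolysis by eIF2, shared 3 probe sets with Eif5-ps1, of which 1 had 1527, 2138 and 3592 in ES and 1096, 699 and 799 in fPS cells. All fPS arrays lay below all ES arrays, and the log2 change was -1.40 (SE 0.331, adjusted p = 0.0919 by limma), while the other 2 probe sets gave -0.46 and -0.48 with overlapping groups. The probe set shared by Eif3e and Eif3el1 was at 5569 ± 767 and 4318 ± 373 (SD, n = 3), a log2 change of -0.36 (adjusted p = 0.463 by limma), without overlap. The probe set shared by Eif2s3 and Eif2s3y had a change of -0.43 with overlapping groups. These probe sets do not tell which of their genes gave the signal.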
